A study of Mus musculus with 16 samples.

Results

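Orm2, Orm3 and Lcn2 are acute phase genes whose transcripts were followed here in whole mouse liver. They were taken by gene name from the 2 deposited tables, and all 3 are listed in both, among 752 genes listed in both and 5205 listed in either. RNA was sequenced from the livers of 16 male mice on a C57BL6 background, 4 in each of 4 groups, after 32 weeks on a low-fat (LF) diet or on the AMLN diet, a feed rich in fat, fructose and cholesterol that is used to induce non-alcoholic steatohepatitis (NASH). The groups were LF-fed TSP1F/F, AMLN-fed TSP1F/F, LF-fed TSP1ΔPf4 and AMLN-fed TSP1ΔPf4 mice. TSP1F/F mice, the littermate controls, carry floxed alleles of the thrombospondin 1 gene, and TSP1ΔPf4 mice carry the same alleles together with Pf4-Cre. Both genotypes therefore share the floxed gene, and Pf4-Cre is used to delete genes in megakaryocytes and the platelets they shed, and whether other cells kept the gene was not tested here. The age of the mice is not in the labels. Each table holds genes selected for a diet difference in 1 genotype, and its diet comparison is therefore no independent test of a listed gene. The study asked how loss of thrombospondin 1 in platelets bears on the liver's response to the diet.

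Acute phase proteins are plasma proteins whose output by the liver shifts within hours of injury or infection. Interleukin 6 acts on hepatocytes through STAT3, interleukin 1 acts through NF-kB, and both work together with glucocorticoids and with C/EBP factors on the promoters of these genes. Orm2 and Orm3 encode alpha-1-acid glycoproteins (orosomucoids), which hepatocytes secrete and which carry lipids and drugs in plasma. Lcn2 encodes lipocalin 2, which withholds iron from bacteria by binding their siderophores. It is made by neutrophils, by macrophages and epithelia, and by hepatocytes under stress. All 3 proteins belong to the lipocalin superfamily.

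Orm3 (chr4:63356162-63359511, forward strand) and Orm2 (chr4:63362449-63365878, forward strand) lie side by side in the mm10 build, and Orm1 (chr4:63344560-63348163), a further copy that neither table lists, lies just before them. Lcn2 lies on another chromosome (chr2:32384633-32388252, reverse strand). In the GENCODE M21 annotation the main transcript of each has 6 exons. The bases before a transcription start of each gene are shown because the response of these genes is known to run through their promoters. They are taken from RefSeq (GRCm38.p6), written 5′ to 3′ on the strand of the gene, for Orm2 (chr4:63362199-63362448), Orm3 (chr4:63355908-63356157) and Lcn2 (chr2:32387798-32387989), with capitals marking the letters TTGCNNAA, a form of the C/EBP motif.
Orm2: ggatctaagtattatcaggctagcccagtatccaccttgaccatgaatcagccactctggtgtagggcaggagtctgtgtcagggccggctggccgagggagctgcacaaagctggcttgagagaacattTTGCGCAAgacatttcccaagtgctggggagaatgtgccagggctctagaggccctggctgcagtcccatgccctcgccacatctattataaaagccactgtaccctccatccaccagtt
Orm3: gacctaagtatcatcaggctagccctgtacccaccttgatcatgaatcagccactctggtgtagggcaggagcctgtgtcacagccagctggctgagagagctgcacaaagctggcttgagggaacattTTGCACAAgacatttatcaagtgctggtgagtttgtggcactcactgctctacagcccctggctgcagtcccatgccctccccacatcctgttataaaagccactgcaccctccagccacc
Lcn2: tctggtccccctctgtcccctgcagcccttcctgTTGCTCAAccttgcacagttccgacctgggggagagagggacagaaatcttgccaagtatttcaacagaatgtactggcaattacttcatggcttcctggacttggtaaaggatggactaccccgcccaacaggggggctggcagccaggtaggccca

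The windows of Orm2 and Orm3 were 85.5% identical, and each of the 3 windows held 1 match to TTGCNNAA, searched on both strands. The match was followed by 112 bases (Orm2), 113 bases (Orm3) and 150 bases (Lcn2) up to the end of the window. Of 32851 mouse promoters, 9.56% held such a match in 250 bases and 7.84% in 192 bases, the length of the Lcn2 window. That window lies inside the annotated gene, precedes 1 annotated Lcn2 start and overlaps a coding exon of another Lcn2 transcript. The letters TTCNNNGAA (STAT), GGGANNNNCC (NF-kB) and GNACANNNTGTNC (glucocorticoid receptor) were not found in the 3 windows. For Lcn2 the bases before the outermost annotated start (chr2:32388252) were not searched.

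The 3 Orm genes are close copies of each other, which bears on how far their reads can be told apart. The first bases of the coding sequence are shown from the GENCODE M21 transcripts, with capitals where the copies differ.
Orm1: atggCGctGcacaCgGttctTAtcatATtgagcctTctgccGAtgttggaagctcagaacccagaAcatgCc
Orm2: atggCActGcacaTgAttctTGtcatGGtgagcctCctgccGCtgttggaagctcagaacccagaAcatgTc
Orm3: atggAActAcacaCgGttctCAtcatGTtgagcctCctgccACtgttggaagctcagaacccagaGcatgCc
Over the 72 bases Orm2 and Orm3 differ at 10, and over whole transcripts they are 88.0% identical, with a longest shared run of 75 bases. Orm2 and Orm1 are 91.0% identical, with a shared run of 141 bases. No stretch of 150 bases, the length of 1 read, was shared by Orm2 or Orm3 with another Orm transcript, and at 50 bases 21.8% of the stretches of Orm2 and 3.59% of those of Orm3 were shared. How reads that fit several genes were counted is not given in the sources used here, so the split between Orm2 and the other copies is uncertain.

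Library totals, recovered from counts, gene lengths and FPKM, ran from 17127965 to 39753019. Group medians were higher in AMLN-fed groups (27661650 and 27148200) than in LF-fed groups (18908941 and 18838183). Values below are counts scaled to library size (CPM) in single mice, numbered 1 to 4 as in the labels, or FPKM, which also divides by gene length. Counts of the members ran from 16 to 12448 per library. Thbs1, the targeted gene, is listed in the TSP1F/F table only, at 0.313 to 1.82 CPM on LF and 1.94 to 13.3 CPM on AMLN, and so does not check the genotype labels. Of 10 hepatocyte markers, 5 are listed for TSP1F/F and 4 for TSP1ΔPf4, and transthyretin (Ttr), the plasma carrier of thyroid hormone and of retinol-binding protein, averaged 3247 to 5519 CPM over the 4 groups. The sample titles give a number, genotype, diet and tissue, and no batch is given. That each group holds 4 mice is taken from the study's methods.

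The AMLN-fed livers held more Orm2, Orm3 and Lcn2 RNA than the LF-fed livers in both genotypes, with group means 3.53-fold to 24.3-fold apart in the fits. After adjustment Orm3 was called higher in both genotypes, Lcn2 in TSP1ΔPf4 mice, and Orm2 in neither. Among AMLN-fed mice, Orm2 and Orm3 were called lower in TSP1ΔPf4 than in TSP1F/F livers. The Orm2 groups overlapped, and its call was lost with TMM or DESeq2 and held in 3 of 8 fits without 1 mouse. The Lcn2 difference was not called without a replicate block and shrank without 1 mouse. On the LF diet none of the 3 was called different between genotypes.

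**Figure D1:**
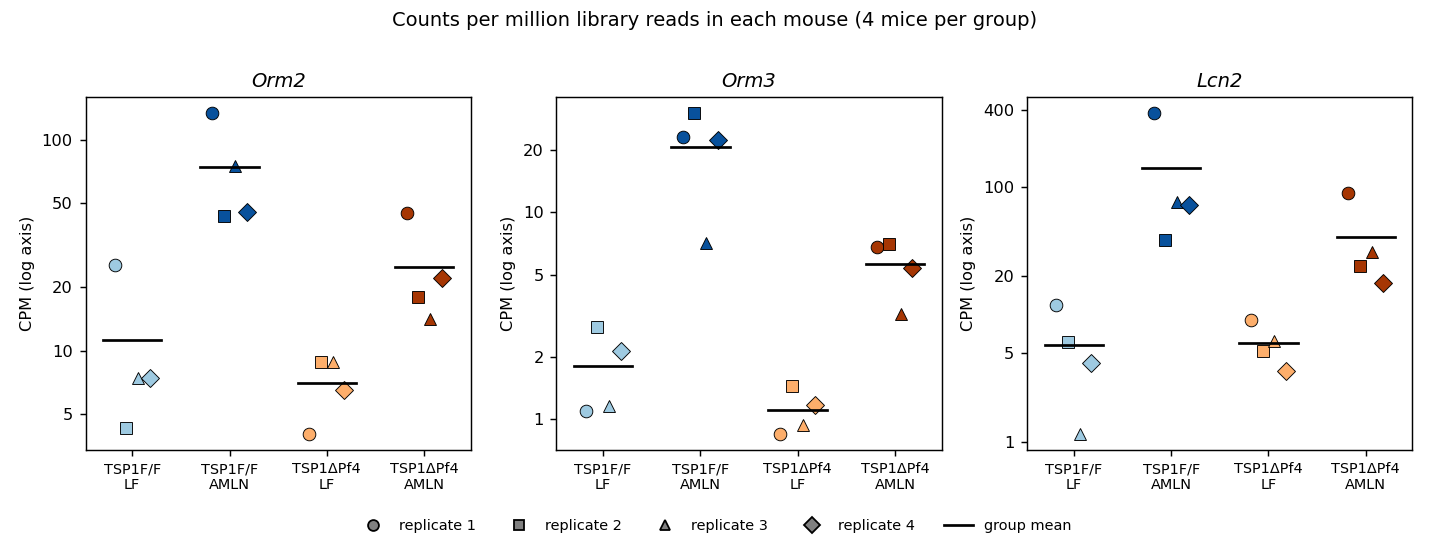
CPM of Orm2, Orm3 and Lcn2 in each of the 16 livers on log axes. Symbols are the replicate numbers and black lines the group means. In each genotype all 4 AMLN-fed mice lie above all 4 LF-fed mice, and replicate 1 of the AMLN-fed TSP1F/F mice holds the highest Orm2 (134) and Lcn2 (377).

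Orm2 RNA in LF-fed TSP1F/F livers was 25.6, 4.29, 7.39 and 7.43 CPM in replicates 1 to 4, a mean of 11.2 ± 9.71 (SD, n = 4). In AMLN-fed TSP1F/F livers it was 134, 43.6, 75.5 and 45.4 CPM, a mean of 74.5 ± 42.0 (SD, n = 4). Replicate 1 was the highest of its group on both diets, and the lowest AMLN-fed mouse was still above that LF-fed mouse. The log2 fold change of Orm2 was 2.74 (standard error 0.58), or 6.67-fold, and the adjusted p (edgeR quasi-likelihood, Benjamini-Hochberg) was 0.0829, so Orm2 was not called. Without LF replicate 1 the log2 fold change was 3.55 and the adjusted p = 0.0434.

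In LF-fed TSP1ΔPf4 livers Orm2 was 4.04, 8.79, 8.82 and 6.47 CPM (mean 7.03 ± 2.28, SD, n = 4). On AMLN it was 45.2, 17.9, 14.2 and 22.1 CPM (mean 24.8 ± 13.9, SD, n = 4). The diets did not overlap here either, and replicate 1 stood above the other 3 AMLN-fed mice. The log2 fold change was 1.82 (standard error 0.38), or 3.53-fold, with an adjusted p = 0.0600, and without LF replicate 3 the adjusted p was 0.0431.

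Orm3 RNA was the scarcest of the 3 by FPKM in most groups. LF-fed TSP1F/F livers held 1.10, 2.79, 1.16 and 2.14 CPM (mean 1.79 ± 0.816, SD, n = 4), from 21 to 57 counts per library. AMLN-fed TSP1F/F livers held 23.3, 30.2, 7.09 and 22.3 CPM (mean 20.7 ± 9.73, SD, n = 4). Replicate 3 was low among the AMLN-fed mice, yet above every LF-fed mouse. Orm3 rose with a log2 fold change of 3.52 (standard error 0.51), or 11.5-fold, at an edgeR adjusted p = 0.0214. The call was lost without AMLN replicate 1, 2 or 4 or LF replicate 1 or 4, while the log2 fold change stayed between 3.28 and 3.81 over the 8 fits that left out 1 mouse.

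In TSP1ΔPf4 livers Orm3 was 0.850, 1.45, 0.934 and 1.17 CPM on LF (mean 1.10 ± 0.269, SD, n = 4), from 16 to 30 counts. On AMLN it was 6.84, 7.07, 3.22 and 5.38 CPM (mean 5.63 ± 1.77, SD, n = 4). Replicate 3 was again the lowest AMLN-fed mouse, and the diets did not overlap. Orm3 rose with a log2 fold change of 2.34 (standard error 0.36), or 5.08-fold, with an adjusted p = 0.0316. The call was lost without AMLN replicate 1, 2 or 3 or LF replicate 2 or 4, with log2 fold changes of 2.22 to 2.54 over the 8 fits.

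Lcn2 RNA in LF-fed TSP1F/F livers was 11.8, 6.0, 1.16 and 4.13 CPM (mean 5.78 ± 4.51, SD, n = 4). In AMLN-fed TSP1F/F livers it was 377, 38.1, 76.3 and 71.9 CPM (mean 141 ± 158, SD, n = 4). Replicate 1 alone lay far above the other 3 AMLN-fed mice, and the group SD exceeded the group mean. The log2 fold change of Lcn2 was 4.60 (standard error 0.86), or 24.3-fold, and at an edgeR adjusted p = 0.0555 Lcn2 was not called. It was 3.42 without AMLN replicate 1 and 5.22 without LF replicate 1.

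In TSP1ΔPf4 livers Lcn2 was 9.03, 5.12, 6.13 and 3.55 CPM on LF (mean 5.96 ± 2.31, SD, n = 4). On AMLN it was 90.2, 24.0, 30.5 and 17.7 CPM (mean 40.6 ± 33.5, SD, n = 4). Here too replicate 1 was the highest on both diets, and the diets did not overlap. Lcn2 rose with a log2 fold change of 2.77 (standard error 0.50), or 6.81-fold, with an adjusted p = 0.0433. The log2 fold change was 2.01 without AMLN replicate 1, and the call was lost without AMLN replicate 1, 2 or 3 or LF replicate 2 or 4.

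In a two-sided exact permutation test of mean CPM, each of the 6 diet comparisons of a member gave p = 0.0286, the smallest that 4 mice against 4 allow. These values describe the listed genes as chosen, since both tables had been filtered for the same contrast. Among the 2096 TSP1F/F genes tested, 2.39% were called higher and 36.6% had every AMLN-fed mouse above every LF-fed mouse, against 1 and 3 of the 3 members. Among the 3089 TSP1ΔPf4 genes, 1.46% were called higher and 20.4% did not overlap in this direction, against 2 and 3 of the members. The median log2 fold change of all genes tested was 1.15 in TSP1F/F and −0.54 in TSP1ΔPf4 mice. Relative to these medians the diet effects were 1.59 and 2.36 for Orm2, 2.37 and 2.89 for Orm3, and 3.46 and 3.31 for Lcn2, on the log2 scale, in TSP1F/F and TSP1ΔPf4 mice. The medians come from different sets of genes, each selected for a diet difference. They are no shared baseline, so these relative values cannot be set side by side between genotypes.

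The numbers called depend on the scaling. With library totals 50 genes were higher and 2 lower in TSP1F/F, and 45 higher and 47 lower in TSP1ΔPf4 mice. DESeq2, with size factors estimated from the listed genes, gave 285 and 456, and 1010 and 366, and TMM normalization gave 160 higher and 38 lower in TSP1ΔPf4 mice. The 3 members were above 0 for diet under each of these scalings.

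**Figure D2:**
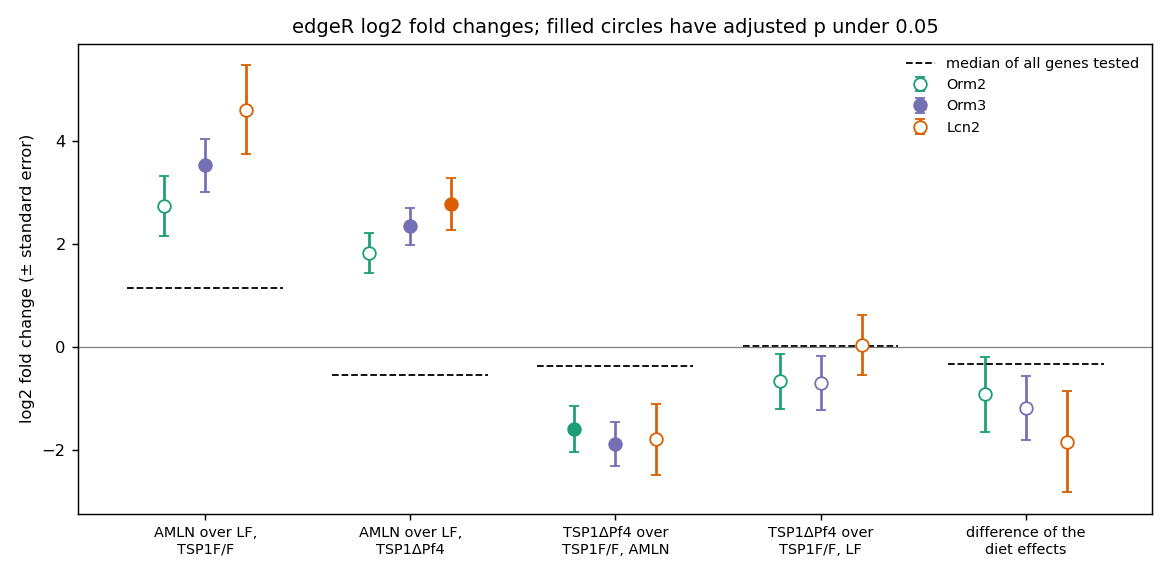
Log2 fold changes of Orm2, Orm3 and Lcn2 from edgeR with standard errors in 5 comparisons, where dashed lines are the medians of all genes tested and filled circles have an adjusted p under 0.05. The filled circles are Orm3 for diet in TSP1F/F mice, Orm3 and Lcn2 for diet in TSP1ΔPf4 mice, and Orm2 and Orm3 for genotype on AMLN.

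The genotypes were compared on the AMLN diet over the genes listed in both tables. Neither table was filtered on genotype. Each was filtered on diet with the AMLN-fed mice of its own genotype, so the comparison is not independent of that selection. Orm3 was lower in AMLN-fed TSP1ΔPf4 mice, and its groups did not overlap, since the highest TSP1ΔPf4 mouse had 7.07 and the lowest TSP1F/F mouse 7.09 CPM. The log2 fold change of Orm3 was −1.88 (standard error 0.43), or 3.68-fold lower, with an edgeR adjusted p = 0.0182 and p = 0.0286 in the two-sided exact permutation test. It stayed between −2.17 and −1.64 when 1 mouse was left out, and the call was lost without TSP1ΔPf4 replicate 2 (adjusted p = 0.0522) or 3 (adjusted p = 0.0538).

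On AMLN, Orm2 was also lower in TSP1ΔPf4 mice, by 3.0-fold (log2 fold change −1.58, standard error 0.44, edgeR adjusted p = 0.0420). TSP1ΔPf4 replicate 1 (45.2 CPM) lay above TSP1F/F replicate 2 (43.6 CPM), and the two-sided exact permutation test gave p = 0.0571. The Orm2 call held in 3 of the 8 fits without 1 mouse. It was lost without TSP1F/F replicate 1 (log2 fold change −1.14, adjusted p = 0.0996) or 3, without TSP1ΔPf4 replicate 2, 3 or 4, and with TMM (−1.33, adjusted p = 0.106) or DESeq2 (−1.26, adjusted p = 0.0560) scaling.

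For Lcn2 the log2 fold change was −1.79 (standard error 0.69), or 3.47-fold lower, with an adjusted p = 0.127, and the two-sided exact permutation test gave p = 0.20. Without TSP1F/F replicate 1 the log2 fold change was −0.61 and the adjusted p = 0.506, and the means were 62.1 ± 20.9 CPM (SD, n = 3) in TSP1F/F and 40.6 ± 33.5 CPM (SD, n = 4) in TSP1ΔPf4 livers. Without TSP1ΔPf4 replicate 1, the highest mouse of the other group, it was −2.55 with an adjusted p = 0.0563. The call was not made in any of the 8 fits. In each same-numbered pair the TSP1ΔPf4 mouse held less Lcn2, and with the replicate number as a block, although the numbers were not taken as pairs, Lcn2 was called lower (−1.52, adjusted p = 0.000693).

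**Figure D3:**
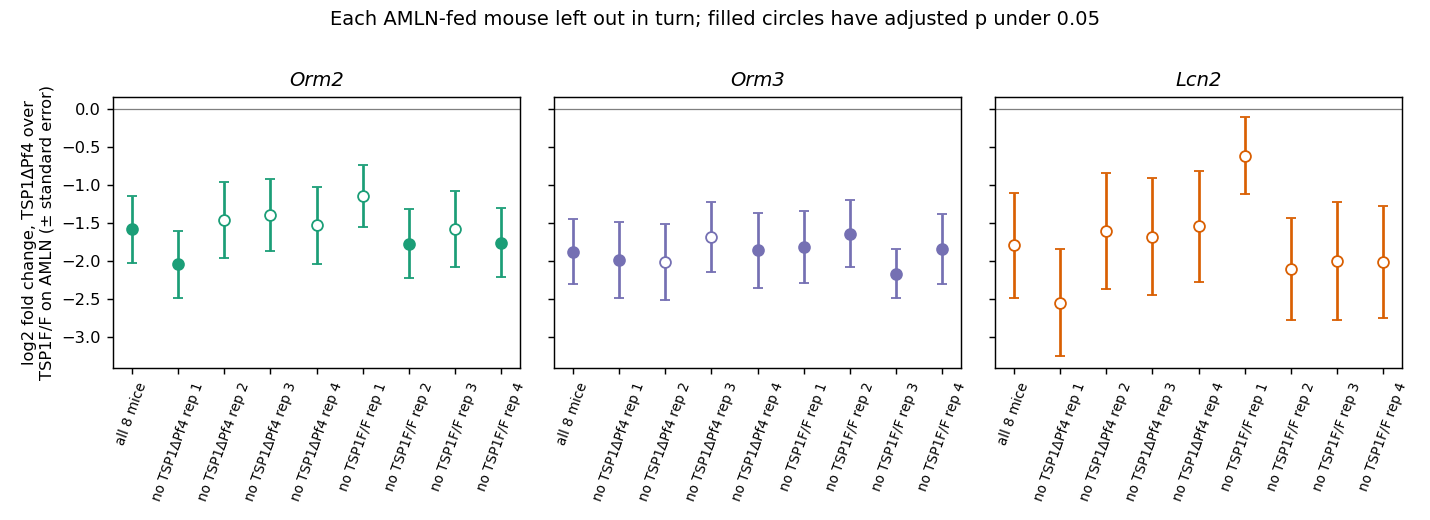
Log2 fold change of Orm2, Orm3 and Lcn2 in AMLN-fed TSP1ΔPf4 over AMLN-fed TSP1F/F livers, with standard errors, for all 8 mice and with each mouse left out. Filled circles have an adjusted p under 0.05. Orm3 is filled in 6 of 8 such fits, Orm2 in 3 and Lcn2 in none, and Lcn2 moves to −0.61 without TSP1F/F replicate 1.

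Of the 733 genes tested in this comparison 8.46% were called lower (62 genes, with 4 higher) and 12.4% did not overlap in that direction, against 2 and 1 of the 3 members. TMM gave 37 lower and 11 higher genes, and DESeq2 56 and 17. The median log2 fold change of all genes lay at −0.38 (library totals), −0.10 (TMM) and −0.03 (DESeq2). Relative to the first, the differences were −1.21 for Orm2, −1.5 for Orm3 and −1.42 for Lcn2. In whole-liver RNA, fewer cells of a type and less RNA per cell cannot be told apart.

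On the LF diet no member was called different between the genotypes. The log2 fold changes, TSP1ΔPf4 over TSP1F/F, were −0.67 (standard error 0.53) for Orm2, −0.70 (standard error 0.52) for Orm3 and 0.04 (standard error 0.58) for Lcn2. All 3 had overlapping mice, with edgeR adjusted p values of 0.709, 0.676 and 0.990 and two-sided exact permutation p values of 0.714, 0.229 and 0.971. Without TSP1F/F replicate 1, whose Orm2 was 25.6 CPM, the Orm2 value turned to 0.14. Lcn2 turned to −0.084 with DESeq2 and −0.033 with TMM, and moved from 0.04 to 0.66 without TSP1F/F replicate 1. The background was 0.0% (0 of 640 genes by edgeR, 44 at an unadjusted p under 0.05, and 1 by DESeq2), and 5.0% of the genes did not overlap in either direction.

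The diet effect itself was then compared between genotypes with an interaction term over all 16 livers. On the log2 scale the diet effect in TSP1ΔPf4 minus that in TSP1F/F mice was −0.92 (standard error 0.73) for Orm2, −1.18 (standard error 0.62) for Orm3 and −1.84 (standard error 0.98) for Lcn2. The edgeR adjusted p values were 0.693, 0.391 and 0.399, so none of the 3 was called, against 0.409% of 734 genes. DESeq2 called 44 genes (12 higher, 32 lower) and TMM 15 (8 higher, 7 lower), where library totals called 3, all lower. The Lcn2 value was −0.66 without AMLN-fed TSP1F/F replicate 1, −2.59 without AMLN-fed TSP1ΔPf4 replicate 1 and −2.45 without LF-fed TSP1F/F replicate 1, and the Orm2 value −1.72 without that LF-fed mouse. A smaller response in TSP1ΔPf4 mice was thus not shown for a member, although the difference on AMLN was called for 2 of them.

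Levels of different genes can be set side by side only per length, as FPKM. Orm2 was the most abundant member in each group by mean FPKM, on AMLN at 96.1 ± 54.2 in TSP1F/F and 32.1 ± 18.0 in TSP1ΔPf4 mice (SD, n = 4 each). Lcn2 followed at 53.7 ± 60.3 and 15.5 ± 12.8 FPKM, and Orm3 at 26.8 ± 12.6 and 7.28 ± 2.29 FPKM. On LF the means in TSP1F/F and TSP1ΔPf4 livers were 14.4 ± 12.5 and 9.07 ± 2.94 FPKM for Orm2. They were 2.32 ± 1.06 and 1.42 ± 0.348 FPKM for Orm3, and 2.21 ± 1.72 and 2.27 ± 0.879 FPKM for Lcn2. When the 12 gene and group means were put in order, the mice of neighbours overlapped in 10 of 11 pairs, the exception being Orm3 in AMLN-fed TSP1ΔPf4 above Orm3 in LF-fed TSP1F/F livers. The 3 genes share mice and libraries, so this order is a description.

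A ratio of 2 genes within a library does not depend on library scaling. The ratio of Orm3 to Orm2 FPKM was 0.0430, 0.652, 0.157 and 0.289 in LF-fed and 0.175, 0.695, 0.0942 and 0.493 in AMLN-fed TSP1F/F mice. Orm3 thus made up between 4.12% and 41.0% of the summed Orm2 and Orm3 FPKM of a liver. In TSP1ΔPf4 mice the ratio ranged from 0.106 to 0.211 on LF and from 0.152 to 0.396 on AMLN. The mean log2 ratio did not differ past the threshold in any of the 4 comparisons, by genotype on AMLN with a difference of −0.19 (two-sided exact permutation test, p = 0.83) and by diet with differences of 0.54 (p = 0.571) and 0.58 (p = 0.20, both exact).

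For Lcn2 over Orm2 FPKM, AMLN-fed TSP1F/F livers had 0.833, 0.259, 0.299 and 0.469 and AMLN-fed TSP1ΔPf4 livers 0.590, 0.395, 0.638 and 0.236. The groups overlapped throughout, with a difference of 0.05 in the mean log2 ratio (two-sided exact permutation test, p = 0.943; between −0.18 and 0.39 with 1 mouse left out). Between the diets in TSP1F/F mice the difference was 1.53 (exact permutation p = 0.0857) and in TSP1ΔPf4 mice 0.80 (exact permutation p = 0.229). The 8 ratio tests were chosen after the values had been seen, and none passed 0.05 before any adjustment.

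**Figure D4:**
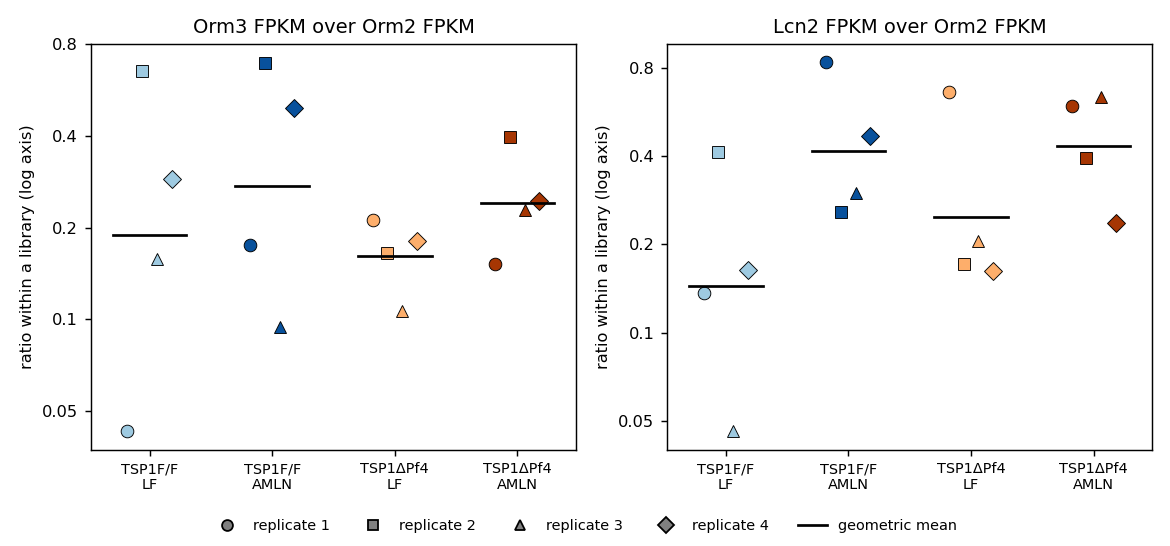
Ratio of Orm3 to Orm2 FPKM (left) and of Lcn2 to Orm2 FPKM (right) in each liver on log axes, with replicate numbers as symbols and geometric means as lines. Groups overlap in both panels, and the Orm3 ratio spans 0.0430 to 0.652 among LF-fed TSP1F/F mice alone.

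Other acute phase genes gave a mixed picture on the AMLN diet. A list of 34, which holds both proteins that rise and proteins that fall in inflammation, had 7 genes in the TSP1F/F table and 13 in the TSP1ΔPf4 table. None passed the test in either, with 4 above and 3 below 0 in TSP1F/F and 6 above and 7 below 0 in TSP1ΔPf4 mice, and medians of 1.42 and −0.50 beside 1.15 and −0.54 for all genes. In TSP1F/F mice the log2 fold changes above 0 were those of Mt1, a metallothionein (2.60), Il1rn, the interleukin 1 receptor antagonist (1.90), the serum amyloid gene Saa3 (1.48) and Steap4, a metalloreductase (1.42). In TSP1ΔPf4 mice the major serum amyloid genes Saa2 (2.59, standard error 0.71, adjusted p = 0.0930) and Saa1 (1.89, standard error 0.78, adjusted p = 0.219) had the highest, and replicate 1 of the AMLN-fed mice carried both. Saa1 was 384, 37.9, 25.7 and 67.7 CPM on AMLN and 18.8, 23.7, 73.9 and 22.6 CPM on LF, and Saa2 was 176, 21.2, 13.4 and 32.7 CPM on AMLN and 7.12, 10.1, 15.6 and 7.43 CPM on LF. The diets overlapped for both genes. Hamp, which encodes the iron hormone hepcidin, had −1.15 (adjusted p = 0.314) in TSP1F/F and −2.46 (adjusted p = 0.0829) in TSP1ΔPf4 mice. The choice of these names followed a look at their values.

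Between the AMLN-fed genotypes 6 of the list could be tested and 0 were called, 2 above and 4 below 0, with a median of −0.34 beside −0.38 for all genes. Their log2 fold changes ran from −1.31 for Hamp through −0.55 for Il1rn, −0.45 for Mt1 and −0.24 for Steap4 to 0.03 for Serpina3k and 0.22 for Ttr. On LF 0 of these 6 and in the interaction 0 of 6 were called.

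**Figure D5:**
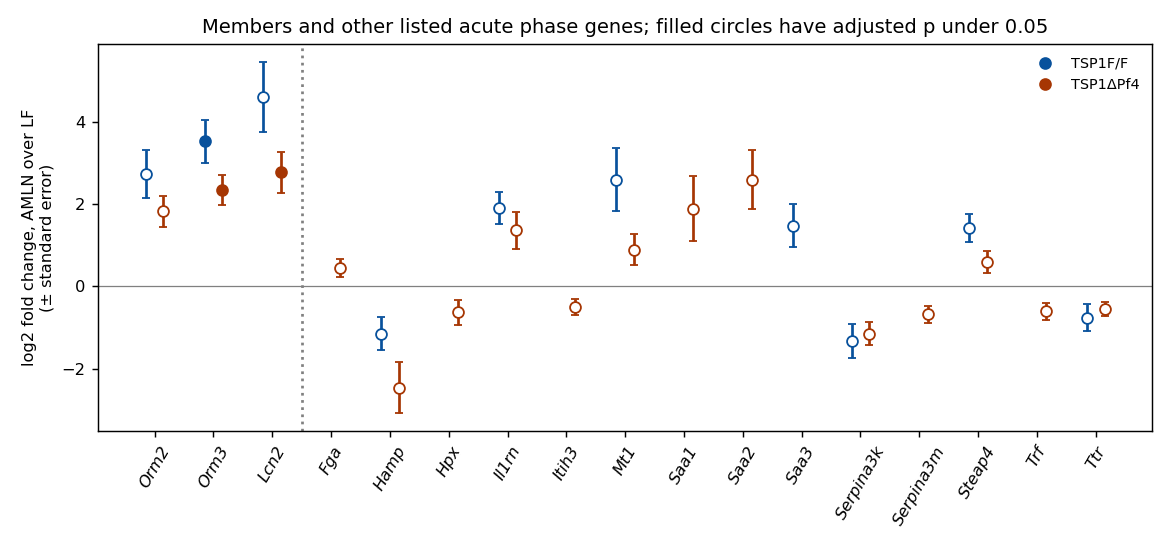
Log2 fold change of AMLN over LF with standard errors for the members (left of the dotted line) and for the other listed acute phase genes, in TSP1F/F (blue) and TSP1ΔPf4 (brown) livers. A gene without a symbol in a colour is not listed in that table. Filled circles, with an adjusted p under 0.05, occur only for Orm3 and Lcn2, and genes such as Hamp, Serpina3k and Ttr lie below 0 in both genotypes.

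Of 16 inducers and receptors, 6 are listed for TSP1F/F and 3 for TSP1ΔPf4, and 0 were called. The log2 fold changes in TSP1F/F mice were 1.58 for Osmr, the oncostatin M receptor, 1.59 for Il10rb and −1.06 for Il1rap, the accessory chain of the interleukin 1 receptor, and in TSP1ΔPf4 mice 0.41 for Il6st, the signalling chain for interleukin 6, and −0.91 for Il1rap. Of 16 transcription regulators, 3 and 7 are listed and 0 were called. The NF-kB subunit genes Nfkb2 and Relb had 1.69 and 2.02 in TSP1F/F and 1.06 and 1.72 in TSP1ΔPf4 mice, and −0.39 and −0.97 between the AMLN-fed genotypes, with 0 called in each comparison. These names too were chosen with the values in view.

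The lipocalin superfamily beyond the members had log2 fold changes for diet that were mostly below 0. Of 18 further genes, 10 were tested in TSP1F/F mice, 9 of them below 0, and 12 in TSP1ΔPf4 mice, 11 of them below 0, with medians of −1.38 and −1.54 beside 1.15 and −0.54 for all genes. Apom, an apolipoprotein carried on HDL, fell in TSP1ΔPf4 mice from 234 to 89.5 CPM (log2 fold change −1.39, adjusted p = 0.0435). In TSP1F/F mice Apom had −1.22 (edgeR adjusted p = 0.0995), and the diets did not overlap. Mup20, a major urinary protein gene whose reads may be split among near-identical copies, is listed for TSP1ΔPf4 mice only. In those mice it fell from 6273 to 2071 CPM (log2 fold change −1.60, edgeR adjusted p = 0.0406). Fabp4, a fatty acid binding protein of adipocytes and macrophages, rose in TSP1F/F mice from 4.62 to 26.4 CPM (log2 fold change 2.52, adjusted p = 0.0214). In TSP1ΔPf4 mice Fabp4 had 1.09 (edgeR adjusted p = 0.231), and the diets overlapped. Between the AMLN-fed genotypes 0 of 9 were called.

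Of 15 genes of iron handling and of lipocalin 2 binding, 2 are listed for TSP1F/F and 5 for TSP1ΔPf4. Hmox1, which encodes the haem-degrading enzyme haem oxygenase 1, rose in TSP1ΔPf4 mice from 9.83 to 23.6 CPM (log2 fold change 1.26, standard error 0.21, adjusted p = 0.0316). In TSP1F/F mice the Hmox1 means were 8.65 CPM on LF and 27.1 CPM on AMLN (log2 fold change 1.65, edgeR adjusted p = 0.131). The diets did not overlap in either genotype. Between the AMLN-fed genotypes Hmox1 had −0.20 with an adjusted p = 0.661. Hamp and Hmox1, the 2 tested between genotypes, were not called there.

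Since Lcn2 is also a neutrophil gene, markers of other cells were read beside it. Of 13 neutrophil markers other than Lcn2, 4 are listed for TSP1F/F (S100a8, Retnlg, Csf3r and Mmp8), and none is listed for TSP1ΔPf4. S100a8 and Csf3r passed the filter on low counts, and neither was called (log2 fold changes 2.13 and 1.68, adjusted p = 0.345 and 0.417). The summed level of all 4 listed markers was 0.992 to 2.63 CPM in LF-fed and 3.10 to 13.0 CPM in AMLN-fed TSP1F/F livers. Mmp8, a neutrophil collagenase, was at 0 in all 4 LF-fed mice. The AMLN-fed mouse with 377 CPM of Lcn2 had 5.11 CPM of these markers, and replicate 4, with 71.9 CPM of Lcn2, had the highest sum, 13.0. The part of neutrophils in the Lcn2 difference was not tested further.

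Some macrophage markers differed by diet and genotype. Of 12 markers of monocyte-derived macrophages, 9 were tested for diet in TSP1F/F mice, with 3 called higher (2.39% of all genes), and 8 in TSP1ΔPf4 mice, with 2 called higher (1.46% of all genes). On AMLN 5 of 8 were called lower in TSP1ΔPf4 livers (Mmp12, Clec7a, Trem2, Lyz2 and Gpnmb, log2 fold changes −3.71 to −2.41), against 8.46% of all genes. The summed level of the 8 markers listed in both tables was 44.7 to 412 CPM on LF and 416 to 2321 CPM on AMLN in TSP1F/F, and 43.0 to 104 and 123 to 224 CPM in TSP1ΔPf4 mice. Among AMLN-fed TSP1F/F mice it was lowest, at 416 CPM, in the mouse with the highest Orm2 and Lcn2. The summed level was mostly Lyz2, whose means on LF and AMLN were 137 and 622 CPM in TSP1F/F mice. In TSP1ΔPf4 mice the Lyz2 means were 51.2 and 109 CPM. Of 6 Kupffer cell markers 3 were tested between the AMLN-fed genotypes, and Cd5l, a secreted macrophage protein, was called lower (−1.31, adjusted p = 0.0333).

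The 3 Kupffer markers of both tables (Vsig4, Cd5l and Adgre1) summed to 34.4 to 139 and 234 to 635 CPM in LF-fed and AMLN-fed TSP1F/F livers. In TSP1ΔPf4 livers they summed to 41.0 to 96.0 and 137 to 178 CPM. Vsig4, a complement receptor, was called higher for diet in TSP1ΔPf4 mice (1.16, adjusted p = 0.0448). In TSP1F/F mice its log2 fold change was 1.44 (edgeR adjusted p = 0.179), and the diets did not overlap. The listed hepatocyte markers had 5 of 5 and 4 of 4 log2 fold changes below 0 for diet and 0 called. The 3 of both tables (Ttr, Fabp1 and Serpina1c) summed to 6578 to 11148 CPM on LF and 3327 to 7590 CPM on AMLN in TSP1F/F, and to 8230 to 11232 and 5472 to 6998 CPM in TSP1ΔPf4 livers. Of 10 platelet markers only Pf4, at 0 to 0.858 CPM on LF and 2.21 to 4.58 CPM on AMLN, is listed, in TSP1F/F only, and of 6 cholangiocyte markers 3 and 2 are listed, with 0 called. The cholangiocyte markers of the tables share no gene, so their sums cannot be set side by side between genotypes. On LF and AMLN they were 30.8 to 59.2 and 51.3 to 243 CPM for Krt19, Krt7 and Spp1 in TSP1F/F livers, and 2.16 to 3.29 and 3.87 to 9.12 CPM for Epcam and Sox9 in TSP1ΔPf4 livers. The TSP1F/F sum was mostly Spp1, which is also among the macrophage markers. On LF and AMLN the means were 42.9 and 114 CPM for Spp1, 0.718 and 3.52 CPM for Krt19, and 0.546 and 3.70 CPM for Krt7. The part of any of these cells in the differences of the members was not tested.

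Among the 751 other genes listed in both tables, those whose log2(CPM + 1) ran most like Orm2 over the 16 livers were Cyth4 (Pearson r = 0.91), Lcn2 (0.90), Soat1 (0.90), Slc15a3 (0.90) and S1pr2 (0.89). Soat1 encodes an enzyme that esterifies cholesterol, Slc15a3 a peptide and histidine transporter, and S1pr2 a sphingosine 1-phosphate receptor. For Lcn2 they were Ifi206 (0.93), Ptpra (0.93), Orm2 (0.90), Kcna2 (0.90) and Mpeg1 (0.89), the last of which encodes the macrophage pore protein perforin 2. For Orm3 they were Gm3776 (0.94), Gsta1 (0.93), Cdkn3 (0.91), Pimreg (0.90) and Ifi206 (0.89), of which Gsta1 and Gm3776 are alpha-class glutathione transferase genes that are close copies of each other. Cdkn3, Pimreg and Ifi206 lay near the floor, with highest group means of 1.24, 0.719 and 1.55 CPM, and Pimreg averaged 0 in both LF-fed groups. Orm3 correlated with Orm2 at 0.81 and with Lcn2 at 0.82, and 23 other genes stood closer to Orm2 than Orm3 did. The 16 livers come from 4 groups that differ by diet, the genes were all listed for a diet difference, and they share libraries and depth, so these correlations are descriptions only.

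Of the genes most like Orm3, on AMLN Gm3776 was at 4.96 ± 1.97 CPM in TSP1F/F and 1.36 ± 0.531 CPM in TSP1ΔPf4 mice (SD, n = 4 each), a log2 fold change of −1.86 with an adjusted p = 0.0298. Gsta1 was 10.2 ± 5.48 and 3.06 ± 1.5 CPM, a log2 fold change of −1.74 with an adjusted p = 0.0333. Cdkn3, Pimreg and Ifi206 were not called (edgeR adjusted p = 0.205, 0.419 and 0.414). Of those most like Orm2, Slc15a3 was called lower in AMLN-fed TSP1ΔPf4 livers (−1.24, adjusted p = 0.0182). Cyth4, Soat1 and S1pr2 were not called (edgeR adjusted p = 0.112, 0.127 and 0.404). The 4 genes most like Lcn2 other than Orm2 were not called between the AMLN-fed genotypes, with log2 fold changes of −0.73 to −0.10. All these genes were picked for likeness to a member over the same livers, so these tests are not independent of that choice.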

How the data were processed

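Liver RNA was sequenced as paired reads in 16 mice. Reads were aligned to mm10, with STAR according to the study's methods, while the submitters' processing notes name HISAT2 and DESeq2. The counting program, annotation release and strand setting are not given in the sources used here. The authors deposited, for each mouse, counts per gene, a signal that is the count divided by a size factor, and FPKM. They also deposited group means, a log2 fold change and p-values for the diets, of which the unadjusted ones reach 0.0499 in both tables, so the 2558 (TSP1F/F) and 3399 (TSP1ΔPf4) genes were selected on diet. Those comparison columns were used only to see this selection and the number of genes adjusted over, and are not given here. Each of the 48 columns of single mice was matched by its label (0 unmatched).

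Library totals (17127965 to 39753019, median 21485267) were recovered from counts, gene lengths and FPKM, and CPM are counts over these totals. Intervals from replicates cover the spread between mice. Genes passing filterByExpr entered quasi-likelihood F tests of edgeR 4.0.16 in R 4.3.3 (normalization factors 1, prior count 0.125), within the 8 libraries of a comparison or, for the interaction, all 16. Standard errors are the log2 fold change over the square root of F. Calls required |log2 fold change| > 0.25 and a Benjamini-Hochberg adjusted p below 0.05. The adjustment covered 16784 and 13927 genes, the authors' numbers, for the diets and otherwise the genes tested. Single values were compared by two-sided exact permutation tests of mean CPM, and ratios likewise on the log2 scale. Alternatives were DESeq2 1.42.0, TMM, the authors' size factors, no filter, adjustment over listed genes, a replicate block, all 16 libraries in 1 fit and each mouse left out. The fit was tested on simulated data. Replicate numbers were not taken as pairs. The named genes were the members, the 5 genes most like each by Pearson r, and list members called with groups that do not overlap, up to 6 per list. Other genes of the lists were named with their values in view. Members and lists were chosen with earlier results of these data known.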

Additional observations from a re-analysis of the deposited data

Results flagged for a closer look

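Among the 12 combinations of gene and group, 2 had a mouse far from the other 3 of its group, measured as its gap to the nearest other mouse over the whole range of the group and set against Dixon's critical value for 4 mice. Chance gives this in about 1 in 20 groups if values are normally distributed, and the rate for unlogged CPM, as used here, was not tested. Lcn2 in AMLN-fed TSP1F/F livers had a value of 0.887, because replicate 1 had 377 CPM where the others had 38.1 to 76.3. Orm2 in LF-fed TSP1F/F livers had a value of 0.852, because replicate 1 had 25.6 CPM where the others had 4.29 to 7.43. Lcn2 in AMLN-fed TSP1ΔPf4 livers, at 0.822, was just inside the limit, with 90.2 CPM in replicate 1. What sets these mice apart was not tested.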

How the results depend on the processing

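With 4 mice per group and genes selected on diet, calls moved with single mice and with scaling, while the direction of the members held in the diet, AMLN genotype and interaction comparisons. DESeq2 called 741 and 1376 genes for diet in TSP1F/F and TSP1ΔPf4 mice, 1 for genotype on LF and 44 for the interaction, and TMM called 198 for diet in TSP1ΔPf4 mice and 15 for the interaction. Adjustment over listed genes gave 1124 and 2187, and no filter gave 83 in TSP1F/F. For diet in TSP1F/F mice Orm2 was called with DESeq2 (2.34) and with adjustment over listed genes (2.74), and Lcn2 with both (4.23 and 4.60) and with no filter (4.60). In TSP1ΔPf4 mice Orm2 was called with DESeq2 (2.15), TMM (2.15) and adjustment over listed genes (1.82). Between AMLN-fed genotypes Orm2 was not called with DESeq2 (−1.26), TMM (−1.33) or all 16 libraries in 1 fit (−1.58), and DESeq2 gave Lcn2 no p-value. On LF, Lcn2 turned to −0.084 with DESeq2 and −0.033 with TMM. The replicate numbers were not taken as pairs, since not every same-numbered pair had deviations from the group means that correlated over 0.1. These correlations were 0.085 to 0.43 between AMLN-fed genotypes and −0.060 to 0.50 between LF-fed genotypes, with 3 of 4 mice closest to their own number in each, and −0.38 to 0.35 and −0.34 to 0.078 between diets in TSP1F/F and TSP1ΔPf4 mice, with 1 and 0 of 4. The replicate block called 10 and 4 genes for diet, 116 between AMLN-fed genotypes and 0 for the interaction. With the block Orm2 (2.92) and Lcn2 (4.44) were called for diet in TSP1F/F mice, Orm3 (2.32) was not in TSP1ΔPf4 mice, and Lcn2 (−1.52, adjusted p = 0.000693) was called between AMLN-fed genotypes. With 1 mouse left out, the genes called ranged from 2 to 61, 1 to 182, 22 to 84 and 0 to 24 for diet in TSP1F/F, diet in TSP1ΔPf4, genotype on AMLN and the interaction. The log2 fold changes for diet ranged from 2.29 to 3.55 (Orm2) and 3.28 to 3.81 (Orm3) in TSP1F/F, and from 1.36 to 2.02 (Orm2), 2.22 to 2.54 (Orm3) and 2.01 to 3.04 (Lcn2) in TSP1ΔPf4 mice. Between AMLN-fed genotypes they ranged from −2.04 to −1.14 (Orm2) and −2.17 to −1.64 (Orm3), and on LF from −0.94 to 0.14 (Orm2) and −0.30 to 0.66 (Lcn2). The cause of these changes was not tested. Orm3 on LF rests on as few as 16 counts.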

Other observations

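The highest Lcn2 value came from replicate 1 in 4 of 4 groups and the highest Orm3 value from replicate 2 in 4 of 4, while Orm2 was highest in replicate 1 in 3 of 4 groups and in replicate 3 of the LF-fed TSP1ΔPf4 mice. The labels give these numbers no shared litter, day or batch.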
